A study of Mus musculus with 4 samples.

Results

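The loci of 5 cardiac T-box genes, Tbx5, Tbx20, Tbx2, Tbx3 and Tbx1, were examined in ATAC-seq profiles of newborn mouse hearts. ATAC-seq marks open chromatin by where the Tn5 transposase inserts sequencing adapters. Every peak that overlapped a gene body, or the 50 kb on either side of it, was taken in GRCm38 coordinates. Peaks were joined into regions wherever they shared at least 1 bp, which gave 38 regions of the 53140 in all. A library was called in a region if a peak of its own deposited list lay there. A region is named edKO-only where each edKO library called it and no WT library did, and WT-only in the converse case. The groups were hearts labelled edKO (2 libraries) and wild-type hearts, WT (2 libraries), all C57BL/6 and taken at postnatal day 0. In the edKO hearts RXR alpha and RXR beta, the retinoid X receptors that pair with other nuclear receptors on DNA, had been deleted in cardiomyocytes. What drove the deletion is not given in the sources used here, and neither is the sex. Each library came from a separate whole heart, so cells without the deletion contributed to every edKO library.

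T-box proteins bind DNA through the conserved T domain and act as activators or repressors in a dose-sensitive way. In the heart Tbx5 and Tbx20 switch on the gene programme of the chamber myocardium together with Nkx2-5 and Gata4. Tbx2 and Tbx3 compete at many of the same genes as repressors, and keep the atrioventricular canal and the conduction system from taking on chamber character. Tbx1 acts earlier, in progenitors of the pharynx and outflow tract, and its loss underlies much of DiGeorge syndrome. Several of these genes are also active outside cardiomyocytes, for example Tbx20 in the endocardium.

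The RefSeq promoter table, of build GRCm38.p6, held 3 windows for 2 of the 5 genes, each running from 250 bases before to 50 bases after a gene start. They are shown because the Tbx20 window lay inside a peak in all 4 hearts, and both Tbx1 windows lay outside every peak. All lie on the minus strand and are written 5′ to 3′, with capitals marking the GC box GGGCGG, read on either strand.
Tbx20, chr9:24774254-24774553: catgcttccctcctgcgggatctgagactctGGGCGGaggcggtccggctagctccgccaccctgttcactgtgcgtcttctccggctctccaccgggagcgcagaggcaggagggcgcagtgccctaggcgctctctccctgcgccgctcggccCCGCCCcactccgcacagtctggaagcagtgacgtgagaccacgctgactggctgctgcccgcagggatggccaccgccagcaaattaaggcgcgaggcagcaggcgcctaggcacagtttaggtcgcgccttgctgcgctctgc
Tbx1 start 1, chr16:18588850-18589149: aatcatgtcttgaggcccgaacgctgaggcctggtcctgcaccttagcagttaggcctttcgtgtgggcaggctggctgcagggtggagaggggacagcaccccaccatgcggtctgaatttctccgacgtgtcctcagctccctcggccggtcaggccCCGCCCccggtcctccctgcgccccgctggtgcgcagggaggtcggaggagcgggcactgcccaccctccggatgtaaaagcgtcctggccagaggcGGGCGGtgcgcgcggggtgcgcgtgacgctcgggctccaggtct
Tbx1 start 2, chr16:18590622-18590921: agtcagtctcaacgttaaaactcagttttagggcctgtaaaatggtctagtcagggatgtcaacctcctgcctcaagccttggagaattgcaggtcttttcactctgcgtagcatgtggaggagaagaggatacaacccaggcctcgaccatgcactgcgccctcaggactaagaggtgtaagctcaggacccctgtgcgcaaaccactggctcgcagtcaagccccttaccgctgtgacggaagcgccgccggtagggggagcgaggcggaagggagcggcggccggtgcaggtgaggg

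The Tbx20 window and the first Tbx1 window were alike in composition, at 68.3% and 69% G and C, and each held 26 CpG dinucleotides. The second Tbx1 window had 58.3% G and C with 16 CpG dinucleotides, where the median promoter of the table had 52.7% and 7. GC boxes began 219 and 95 bases before the Tbx20 start. In the first Tbx1 window they began 91 bases before and 6 bases after the start, and the second held none. GC boxes were present in 35.7% of all 32851 promoter windows. None of the 3 windows held the nuclear receptor sites AGGTCA (16.3% of all windows) or GGGTCA (13.7%), or a direct repeat of these with 1 to 5 bases between (0.256%). Nor did they hold the T-box site GGTGTGA (3.98%), GATAA (25.4%), CCAAT (37.4%), TATAAA (13.6%), the TEAD site GGAATG (14.7%) or the NKX site AAGTG (46.4%). Both strands were searched, and no match says only that these letters are not in the window.

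Of the 38 T-box regions, 12 were called in edKO 1, 16 in edKO 2, 21 in WT 1 and 22 in WT 2. The edKO hearts averaged 14.0 ± 2.83 regions and the WT hearts 21.5 ± 0.707 (SD, n = 2 each), so the groups did not overlap and the ratio was 0.651. The exact two-sided permutation test over libraries gave p = 0.33, the smallest value that 2 hearts against 2 allow. Over the whole lists 26493 and 26262 regions were called in edKO 1 and edKO 2, against 34488 and 37986 in WT 1 and WT 2, a ratio of 0.728. With all lists trimmed to their strongest 27142 peaks, the length of the shortest, the T-box windows held 12 and 16 regions in the edKO hearts and 15 in each WT heart, a ratio of 0.933, and the groups overlapped. In the same trimmed lists 5 of the 11 T-box regions called in each WT heart were still called in neither edKO heart, against 10.6% of all regions.

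**Figure D1:**
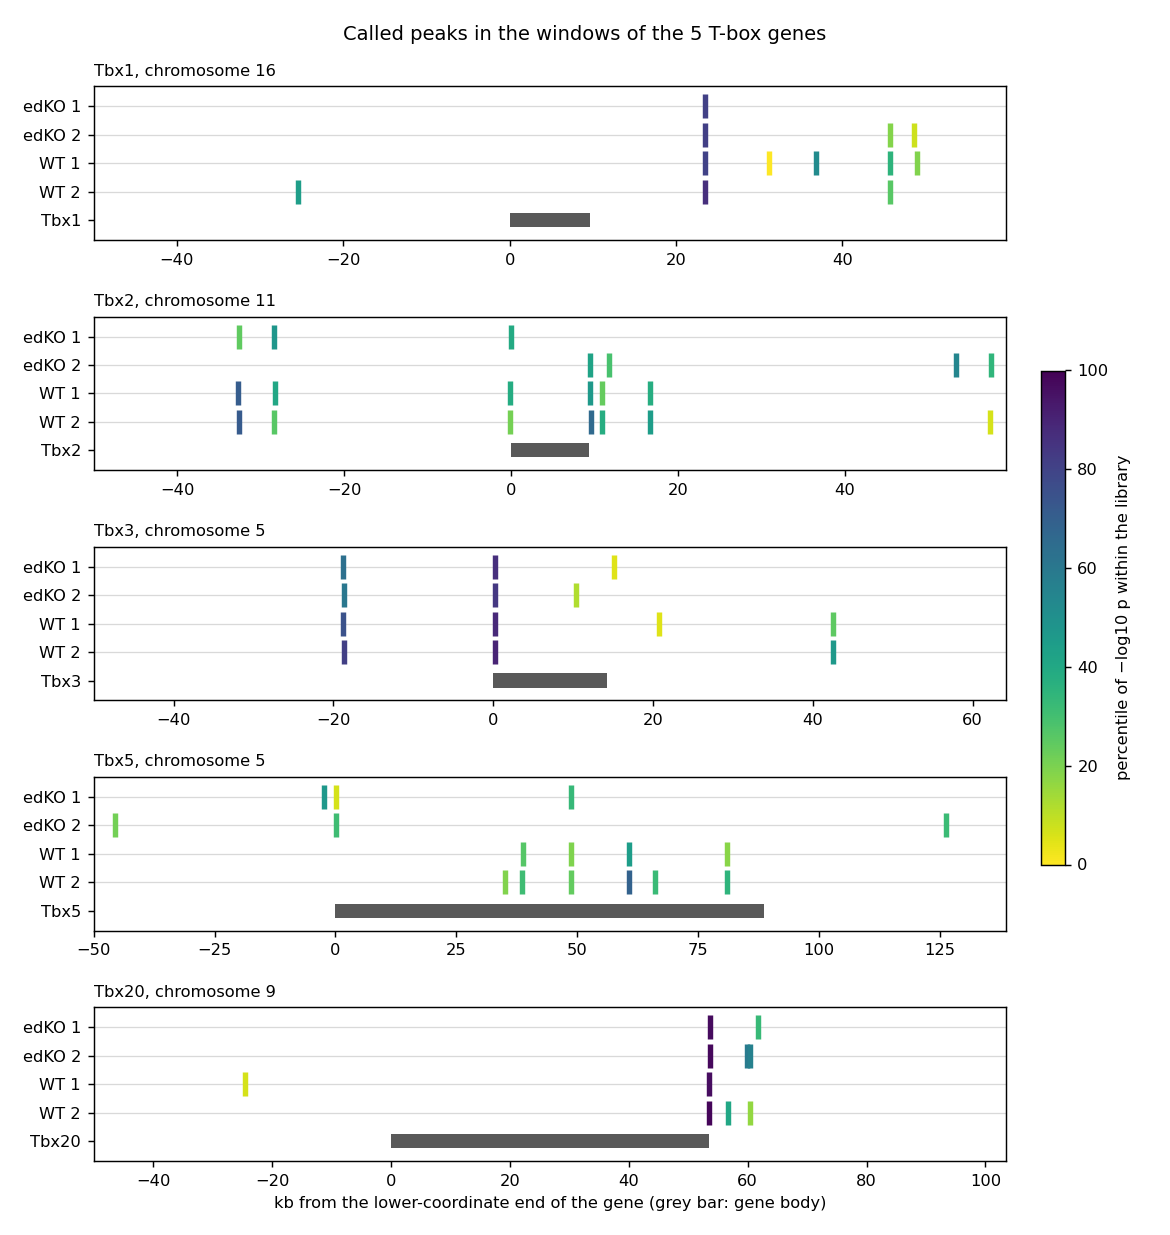
Peaks called in each library (rows, edKO above WT) in the windows of the 5 genes; the x axis is the distance in kb from the lower-coordinate end of the gene, the grey bar is the gene body, and the colour is the percentile of the authors' −log10 p within that library. Marks shared by all 4 rows stand at the upper end of Tbx20, at the lower end of Tbx3 and in its lower flank, and above Tbx1.

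The lists differed in length, and whether they also differed in how easily a weak site is called was not tested. They held 27473 and 27142 peaks in edKO 1 and edKO 2, against 35279 and 38809 in WT 1 and WT 2. The lowest local background, which follows depth, was 1.51 and 1.92 in edKO 1 and edKO 2, against 1.81 and 1.80 in WT 1 and WT 2. Among the strongest 10000 peaks of each list the fold enrichment had a median of 10.2 and 7.61 in edKO 1 and edKO 2, against 10.8 and 11.5 in WT 1 and WT 2. Of 10 cardiomyocyte markers, 8 had a peak within 1 kb of a gene end in all 4 libraries and 1, Nkx2-5, had none in any. Liver and neuronal genes had such a peak in any library for 1 of 5 genes each. Fibroblast and mural markers had it for 2 and 2 of 5 genes in edKO 1 and edKO 2, against 3 and 5 in WT 1 and WT 2, and blood markers for 0 and 0 of 4, against 1 and 1. For conduction markers it was 2 and 3 of 5 in the edKO hearts, against 4 and 3 in the WT hearts, for epicardial markers 4 and 4 of 5, against 3 and 3, and for endothelial markers 2 and 2 of 6, against 1 and 2. Of the blood markers only Spi1 was called in any library. Among all protein-coding genes 46.8% had a gene end called in all 4 libraries and 40.4% in none. The share in each single library was not counted, and the edKO lists were shorter, so the marker counts do not measure a difference in cell numbers. The part of depth and of these cell types in the T-box calls was not tested. Fewer cells of a type and less open chromatin per cell cannot be told apart in whole hearts.

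Tbx20 carried the strongest T-box region in every library, over its promoter (chr9:24774110-24774768, 659 bp). Its pileup, reconstructed from fold and −log10 p, is the number of reads or fragments over the summit. It was 119 in edKO 1 and 96 in edKO 2, against 150 in WT 1 and 202 in WT 2. The authors' −log10 p was 98.1 and 75.8 in edKO 1 and edKO 2, against 114 and 165 in WT 1 and WT 2. Both edKO values were below both WT values on each of these measures, which scale with depth and enrichment. The same held at every T-box region called in all 4 libraries. Over the whole lists the median pileup was 19 and 18 in edKO 1 and edKO 2, against 23 in each WT list. The median −log10 p was 11.0 and 8.54, against 11.9 and 12.1 in WT 1 and WT 2. How many of the 16568 regions called in all 4 libraries separate in this way was not counted. Within its own list the region ranked at percentile 97.1 in edKO 1 and 97.7 in edKO 2, against 96.7 in WT 1 and 98.8 in WT 2, so the ranks of the groups overlapped. Summits lay 45 and 126 bases before the gene start in edKO 1 and edKO 2, against 98 and 57 bases in WT 1 and WT 2. Promoter windows were called in all 4 libraries in 31.2% of 32619 cases.

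Besides the promoter region, the Tbx20 window held 5 regions. Its density was 3.91 regions per 100 kb, against a median of 3.56 over protein-coding genes. No other region touched the gene body of 53492 bp, and all but 1 of the remaining 5 regions lay beyond the promoter, over the lncRNA gene Gm29824. The next strongest was called in edKO 2 alone (chr9:24780611-24780858, 6308 bp from the gene), at −log10 p of 10.2, and the third in WT 2 alone (chr9:24777380-24777579), at 9.85. Of the 6 regions of the window 4 were called in a single library. They were the 2 just named, a further region of edKO 1, and a region of WT 1 over the promoter window of the neighbour Dpy19l2. The remaining region was shared by edKO 2 and WT 2. No region of Tbx20 was edKO-only or WT-only.

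Tbx5, an activator whose loss of a copy causes Holt-Oram syndrome, showed the opposite layout, with 10 regions, none called in all 4 libraries. Its RefSeq span (chr5:119796514-119885220) covers 1 curated and 6 predicted transcripts, whose separate starts were not used here, so its lower end need not be the start of the main transcript. At that lower end lay the only edKO-only region of the 5 genes (chr5:119796488-119796954). It was weak, with a pileup of 12 and −log10 p of 5.07 in edKO 1 and a pileup of 14 and −log10 p of 6.47 in edKO 2. These stood at percentiles 6.42 and 31.1 of their lists. The summits were 18 bp apart, and the nearest WT peak was 34497 bp away. Such edKO-only regions made up 1.35% of the 17442 regions called in both edKO hearts, and 1 of the 5 T-box regions called in both. With a minimum −log10 p of 10 in every list it was gone. Gene ends called in both edKO hearts lacked a call in both WT hearts in 0.476% of 10300 genes.

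Further inside Tbx5 lay 3 WT-only regions. The strongest (chr5:119857040-119857423, 60526 bp from the lower end) had a pileup of 22 in WT 1 and 34 in WT 2, and −log10 p of 10.7 and 21.4 in the same libraries. The nearest edKO peak was 11789 bp away. Next came chr5:119835071-119835364, with a pileup of 21 in each WT heart, and a −log10 p that was 7.71 in WT 1 and 8.14 in WT 2. It was followed by chr5:119877280-119877583, with a pileup of 14 and 18 and −log10 p of 6.66 and 8.93, in each case for WT 1 and WT 2. Summits of the WT hearts agreed within 26, 27 and 38 bp at these sites. Another region of both WT hearts (chr5:119845052-119845313) was also called in edKO 1, where its −log10 p of 7.97 exceeded the 6.87 of WT 1 and 7.31 of WT 2.

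The remaining 5 Tbx5 regions were each called in a single library. The strongest of these lay 2131 bp below the gene in edKO 1 (chr5:119794130-119794383), at −log10 p of 10.1. It was followed by a region of WT 2 inside the gene (chr5:119862463-119862758), at 8.41. All 6 WT 2 regions of the window and all 4 WT 1 regions lay within the gene body, as did 2 of 3 edKO 1 regions and 1 of 3 edKO 2 regions. The edKO regions outside the body were each called in a single library. How often other gene windows differ in this way was not counted, so no shift in place can be read from these few calls.

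**Figure D2:**
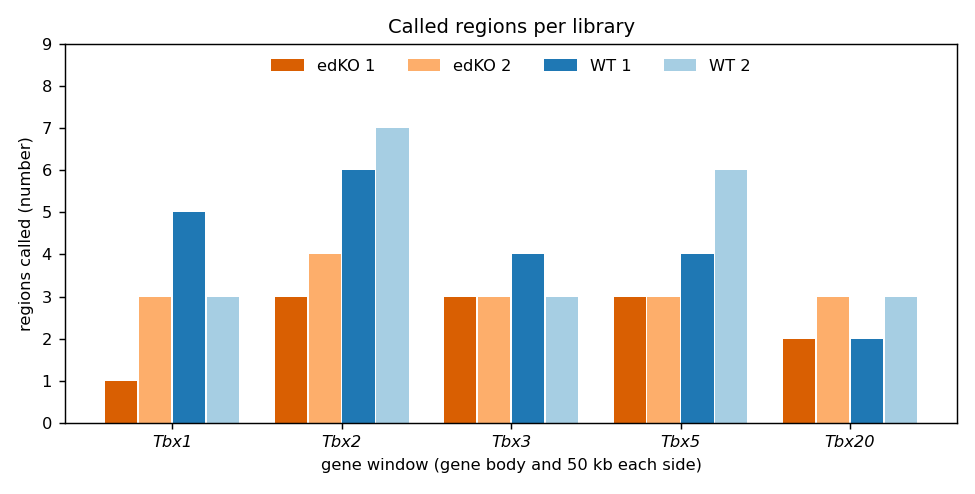
Number of regions called per library in the window of each gene (y axis from 0; edKO bars left of WT bars, 1 bar per heart). At Tbx2 and Tbx5 both edKO bars lie below both WT bars, with 3 and 4 against 6 and 7, and 3 and 3 against 4 and 6. At Tbx1, Tbx3 and Tbx20 the groups overlap or touch. Over the whole lists both edKO counts were also below both WT counts (26493 and 26262 against 34488 and 37986). How many other gene windows separate in this way was not counted.

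Tbx3, the repressor that maintains pacemaker and conduction tissue, had a strong region over its lower end (chr5:119670316-119671139, 824 bp, the widest of the 38), which also overlapped the lncRNA gene Tbx3os1. Its pileup was 60 in edKO 1 and 38 in edKO 2, against 79 in WT 1 and 87 in WT 2. The −log10 p was 43.4 and 26.1 in edKO 1 and edKO 2, against 57.2 and 65.9 in WT 1 and WT 2. Ranks within the lists were closer, at percentiles 86.4 and 83.9 in edKO 1 and edKO 2, against 88.4 and 90.2 in WT 1 and WT 2. Both edKO ranks were lower. Since the lists differ in length, ranks here and at the other T-box regions measure no change between the groups. Summits of the 4 libraries fell within 36 bp.

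A companion region in the lower flank, 18433 bp from Tbx3 and inside Tbx3os1 and Gm16064 (chr5:119651501-119652101), was also called in all 4 libraries. Its pileup was 23 and 18 in edKO 1 and edKO 2, against 37 and 48 in WT 1 and WT 2. Here the percentiles were 63.4 and 60.5 in the edKO hearts, against 74.8 and 81.4 in the WT hearts. A WT-only region lay 28191 bp above the gene (chr5:119712915-119713264), with a pileup of 13 in WT 1 and 17 in WT 2 and summits 2 bp apart. No edKO peak was found within 27089 bp of it. The other 3 regions were weak and called in a single library, at −log10 p of 4.60 in edKO 1, 5.23 in edKO 2 and 5.16 in WT 1. The WT 1 region overlapped the promoter window of the lncRNA gene Tbx3os2.

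Tbx2, the repressor of the atrioventricular canal and outflow tract, had no region called in all 4 libraries and none called in both edKO hearts. Its 9 regions included 6 called in both WT hearts, the most of the 5 genes, of which 3 were also called in edKO 1, 1 in edKO 2 and 2 in neither. The region over its lower end, shared with the lncRNA gene 2610027K06Rik (chr11:85832286-85832807), had −log10 p of 8.86 in edKO 1, against 9.45 in WT 1 and 7.09 in WT 2, and was missed in edKO 2. At the upper end (chr11:85841981-85842342) the calls were the reverse, with −log10 p of 7.53 in edKO 2, against 10.9 in WT 1 and 19 in WT 2, and no call in edKO 1. Each end of Tbx2 therefore had a peak in both WT hearts and in a different edKO heart.

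The strongest region of the Tbx2 window lay 32412 bp below the gene, inside Bcas3 and 2610027K06Rik (chr11:85799532-85800203). Its pileup was 15 in edKO 1, against 42 in WT 1 and 41 in WT 2, and edKO 2 had no call. In rank it stood at percentile 24.5 in edKO 1, against 71.0 in WT 1 and 71.6 in WT 2, while its 3 summits agreed within 12 bp. Among T-box regions called in both WT hearts and at least 1 edKO heart this was the lowest pileup in edKO relative to WT. It rests on edKO 1 alone, where the local background was also lower, at 2.96, against 5.56 in WT 1 and 5.06 in WT 2. The fold enrichment there was 4.04 in edKO 1, against 6.55 in WT 1 and 6.93 in WT 2.

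Both WT-only regions of Tbx2 lay above the gene. That at 7142 bp (chr11:85849090-85849411) had a pileup of 23 in WT 1 and 24 in WT 2, at −log10 p of 9.23 and 10.8, with summits 2 bp apart. That at 1448 bp (chr11:85843396-85843636) had a pileup of 25 in WT 1 and 27 in WT 2, at −log10 p of 7.24 and 9.29. The nearest edKO peak to the first was 4578 bp away, and an edKO 2 peak lay 569 bp from the second. A further edKO 2 region (chr11:85885871-85886115, −log10 p of 9.16) stood next to the lower end of Tbx4, a T-box gene of the hindlimb, and the last region of the window lay inside Tbx4.

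Tbx1 was the exception among the 5 genes, with no peak in its gene body or within 1 kb of either gene end in any library. Gene ends were called in no library in 40.4% of 21631 protein-coding genes and in all 4 in 46.8%, and promoter windows in no library in 58.9% of cases. Its strongest region lay 13506 bp upstream of the farther start (chr16:18604177-18604802), outside every annotated gene, and was called in all 4 hearts. The pileup there was 44 in edKO 1 and 42 in edKO 2, against 52 in WT 1 and 69 in WT 2. It ranked at percentiles 80.6 and 81.4 in edKO 1 and edKO 2, against 80.1 and 86.6 in WT 1 and WT 2, so the ranks overlapped between groups. Of the other 6 regions, 3 lay over Septin5, 1 lay inside Gnb1l and 2 lay outside genes. The stronger of these were called in WT 1 alone (chr16:18617646-18617908, −log10 p of 12.6) and in WT 2 alone (chr16:18555359-18555629, 10.7). Of the Septin5 regions 1 was shared by edKO 2 and both WT hearts, and no region of the window was edKO-only or WT-only.

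**Figure D3:**
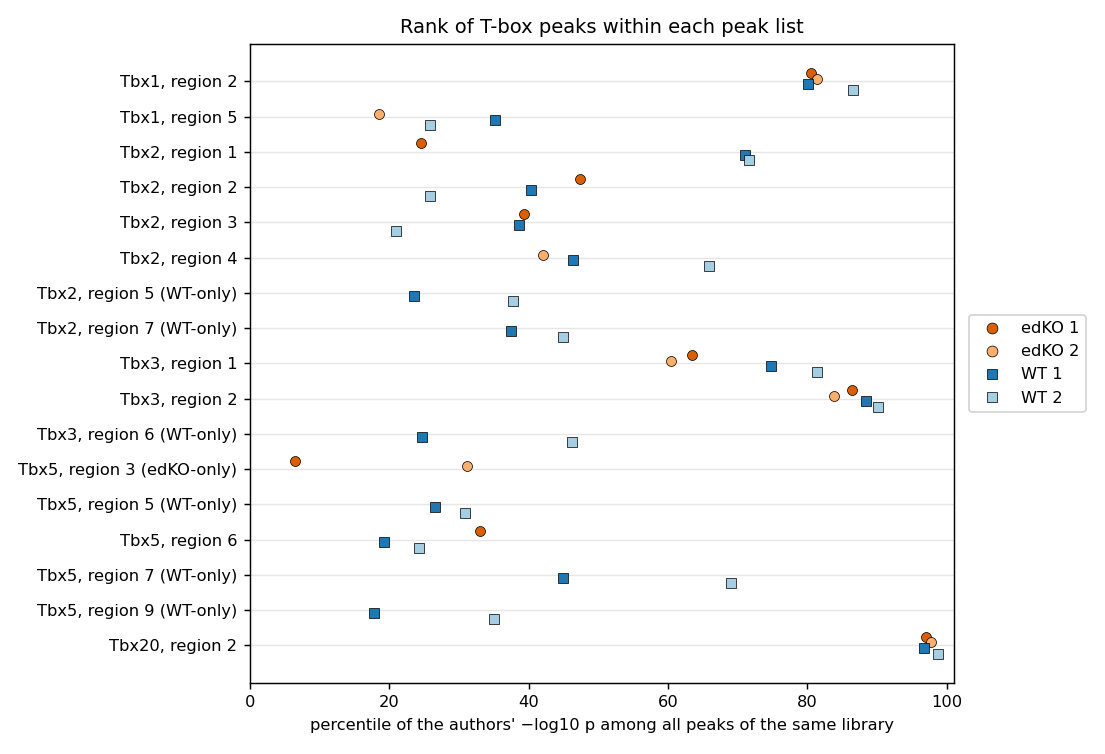
Percentile of the authors' −log10 p within each library (x axis) for the T-box regions called in 3 or 4 libraries, WT-only or edKO-only (rows, numbered from low to high coordinate within each window; circles edKO, squares WT, 1 symbol per heart, absent where not called). Symbols are offset vertically within a row to keep the libraries apart. The promoter of Tbx20 sits between 96.7 and 98.8 in all hearts, and Tbx2 region 1 stands at 24.5 in edKO 1, against 71.0 and 71.6 in WT 1 and WT 2.

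Together, 16 T-box regions were called in both WT hearts, and 6 of them were WT-only (37.5%). Over the whole series this share was 19.4% of 28087. These 6 had a median strength at percentile 33.1, where strength is the mean rank over the WT lists, and ranged between 26.4 and 56.9. T-box regions were weaker than most, with a median strength of 38.3 against 60.1 over all regions, and weak regions were WT-only more often over the whole series. Below the 50th percentile 5 of 9 T-box regions were WT-only, against 43.4% of all regions there. At or above it 1 of 7 was, against 4.47%. With the trimmed lists split in the same way, which was added after the data had been examined, 5 of 6 below the 50th percentile were WT-only, against 24.0%, and 0 of 5 above it, against 1.41%. These counts rest on few and mostly weak regions, and were not tested. They depended on single libraries, and so did the share over all regions. Without WT 2, 11 of 21 T-box regions were WT-only, against 30.4% of all, and without WT 1 10 of 22 were, against 34.2%. Without edKO 1 it was 10 of 16, against 35.9%, and without edKO 2 8 of 16, against 24.6%. All 6 WT-only regions lay more than 1 kb from any end of their T-box gene, and 3 lay in the body of Tbx5. Of all 38 T-box regions only 6 lay within 1 kb of such an end. Transcript starts inside the Tbx5 span were not used, so a region in its body may lie at a start.

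**Figure D4:**
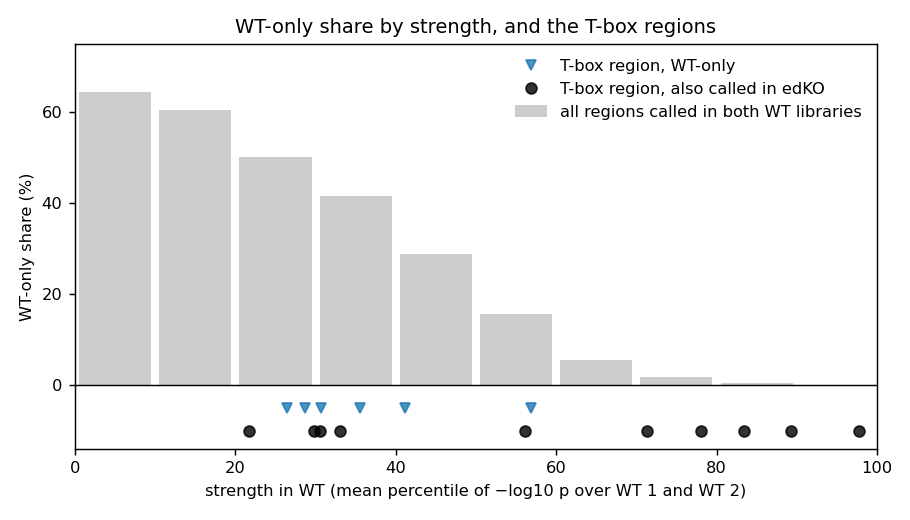
WT-only share of the regions called in each WT heart (bars, %, y axis) by strength in WT (x axis, mean percentile over both WT lists, in bins of 10), with the 16 T-box regions marked below the axis (triangles, WT-only; circles, also called in edKO). The WT-only T-box regions lie between 26.4 and 56.9, where the share over all regions is between 50.2% and 15.7%.

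The T-box windows held fewer shared and more singular calls than the series. Of the 38 regions 4 were called in all 4 libraries (10.5%, against 31.2% of all regions) and 19 in a single library (50.0%, against 39.3%). In edKO 2, 7 of 16 T-box regions were called in no other library, against 23.2% of all its regions, and 3 of 12 in edKO 1, against 9.15%. In WT 1 it was 5 of 21, against 14.3%, and in WT 2 4 of 22, against 19.7%. Where several libraries called a region, all summits fell within 100 bp in 16 of 19 such regions, with a median spread of 38 bp. Regions were built from overlapping peaks, which by itself brings summits close. The spread over all regions of the series was not counted. Regions per 100 kb of window numbered 8.23 at Tbx2, 6.38 at Tbx1, 5.30 at Tbx5, 5.25 at Tbx3 and 3.91 at Tbx20. The median protein-coding gene had 3.56, and Tbx2 exceeded 84.1% of genes while Tbx20 exceeded 54.1%.

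Other genes of the T-box network were read by the same windows. In 12 other T-box family genes, 6 of 38 regions with calls in each WT heart were WT-only (15.8%, against the 19.4% of all regions), or 4 of 35 without the regions that Tbx4 shares with the Tbx2 window. Of those called in each edKO heart 1 of 25, near Tbx4, was edKO-only, against the 1.35% of all regions. Gene ends of Tbx18, an epicardial and sinus node factor, Mga, Eomes and Tbx10 were called in all 4 hearts, and those of 5 of the 12 in none, where 46.8% and 40.4% of all protein-coding genes were. Among 10 factors that work with T-box proteins 14 of 63 such regions were WT-only (22.2%) and 0 of 38 edKO-only, against the same 1.35%. Gata4, Gata6, Hand2, Srf and Myocd had a gene end called in all 4 hearts, that of Isl1 in edKO 1 and both WT hearts, and that of Gata5 in the WT hearts alone. Those of Nkx2-5, Hand1 and Mef2c were called in none. Among 14 genes known as T-box targets 6 of 45 were WT-only (13.3%) and 3 of 34 edKO-only, again against 1.35% of all, the last near Ryr2 and the adjoining genes Nppa and Nppb. The natriuretic peptide genes Nppa and Nppb and the connexin Gja1, which chamber activators and T-box repressors regulate in opposite directions, were among the 8 of 14 with a gene end called in all 4 hearts. The connexin Gja5 was among the 5 with none.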

How the data were processed

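ATAC-seq was run on nuclei of 4 newborn hearts, 2 edKO and 2 WT, grouped by sample title. The submitters' processing notes name MACS2, Bowtie2, SAMtools, cutadapt, bcl2fastq and CASAVA, and the builds mm10 and GRCm38. Anything on versions, the Tn5 shift or duplicates is not given in the sources used here. Each library has its own peak list as deposited by the authors, so replicates were not pooled, with the fold enrichment ratio at the summit, its −log10 p and −log10 q-value, and a score equal to the −log10 p times 10, cut to a whole number, in nearly all peaks. These served to describe and rank peaks within a list.

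Pileup and local background were solved from fold and −log10 p under a Poisson tail, which gave whole numbers within 0.001 for at least 99.982% of peaks. Depth limits precision: T-box pileups ran between 10 and 202, and the lowest of any peak was 6 to 7. Whether a pileup counts reads or fragments is not given in the sources used here. Gene spans came from RefSeq (GRCm38.p6), without strand or exons, and starts and strands of Tbx1 and Tbx20 from its promoter table. Merging and pileups were tested on simulated data, with sites well apart and with pileups and backgrounds below the highest T-box values. Crowded sites and those highest values were therefore not covered. Python 3.11.15, pandas 2.3.3 and SciPy 1.17.1 were used.

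Members and lists were chosen with earlier results of these data known, and 1 gene of the target list is not reported here. Regions named are promoters or gene ends, WT-only and edKO-only regions, and the 3 strongest per gene; 1 further Tbx5 region and some shared or neighbour regions were added after their values were seen. Alternatives were stricter −log10 p, equal list lengths, summit windows, shorter flanks, a replicate block and leaving out each library.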

Additional observations from a re-analysis of the deposited data

How the results depend on the processing

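The edKO to WT ratio of regions called in the T-box windows stayed below 1 in every alternative run. The whole lists stood at 0.728 in the main run, and their ratio was not computed for the alternatives. The T-box ratio was 0.619 and 0.611 with −log10 p of at least 5 and 10, 0.690 with 20 kb flanks, 0.562 in gene bodies, 0.651 with summit windows, and 0.558 to 0.744 leaving out 1 library. With lists of equal length it was 0.933 and the groups overlapped, at 12 and 16 regions in the edKO hearts and 15 in each WT heart. Replicate numbers give no known pairing (correlation of same-numbered deviations −0.00368 over 16568 regions); with the replicate block the ratio was 0.645 (exact sign-flip p = 0.5, the smallest possible). WT-only T-box regions numbered 3 with −log10 p of at least 10 (of 7, against 21.6% of all regions) and 3 in gene bodies, in which fewer regions are counted. Of the 3 at that minimum only 1, inside Tbx5, is among the 6 described; the other 2, at Tbx2, had edKO calls below that minimum. Leaving out 1 library asks for fewer calls and gave 8 to 11: 11 of 21 without WT 2 (against 30.4% of all regions), 10 of 22 without WT 1 (34.2%), 10 of 16 without edKO 1 (35.9%) and 8 of 16 without edKO 2 (24.6%). The edKO-only count of 1 became 0 with −log10 p of at least 10, and was 1 to 8 leaving out 1 library: 8 of 16 without edKO 1 (against 24.2% of all regions) and 4 of 12 without edKO 2 (10.1%), where the share had been 1.35%. Other alternatives left 5 or 6 WT-only regions and 1 edKO-only region. A missing call means a site below the authors' threshold at that depth, not closed chromatin.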

Other observations

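Of 14 promoter windows of neighbouring genes at the T-box loci 10 were called in no library (71.4%), against 58.9% of all promoter windows. Those of the lncRNA genes Tbx3os1, Gm16064, Gm42017, Gm5563, Gm29824, Gm35369 and 4930588K23Rik, of Gp1bb, and of Tbx4 held no peak in any library, and those of Tbx3os2 and Dpy19l2 held a peak in WT 1 alone. The Tbx3os1 window, the antisense start beside Tbx3, lay just outside the strong region at the lower end of Tbx3. The promoter of Gnb1l, whose gene body reaches into the Tbx1 window, was called in all 4 libraries, as was that of Bcas3 in the neighbourhood of Tbx2. Both start outside the windows examined.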
